A study of Mus musculus with 200 samples.

Results

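The nuclear subunit genes of respiratory complex I were followed through all 7 tables of a series on mouse peri-implantation embryos. Members were the genes of the screen table whose symbol is Nduf followed by a, b, c, s or v and a number, with Ndufab1 added. The rule used symbols only and found 37 of 25006 genes. They are 7 core subunits of the matrix arm, 9 accessory subunits of the matrix arm, 9 accessory subunits of the proximal membrane arm, 11 accessory subunits of the distal membrane arm, and Ndufa4, which was first described as a complex I subunit and is now placed in complex IV. Ndufb1 and the subunits encoded by mitochondrial DNA were not analysed here.

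Smart-seq2, which amplifies full-length cDNA from few cells, was applied to polyadenylated RNA in 200 libraries of 70 groups, and the deposited values are TPM, the share of a library's transcripts that a gene holds after scaling for length. Per the labels, the embryos came from natural matings, and no strain, sex or driver line is named. Epi stands for the epiblast, which forms the embryo proper, and PrE for the primitive endoderm, an extraembryonic layer that forms yolk sac. The screen table held 148 Epi libraries of E5.0 in 10 batches, each with wild-type controls, and 40 knockouts made with C-CRISPR, which directs several guide RNAs to one gene in the embryo so that each library holds edited founder cells and not a line. Knockouts of Aurkb, Nelfb, Snai1, Ss18 and Ssrp1 were in batch 1, and those of Ascl2, Cxxc1, Elf5, Ets2, Lmo2, Mcrs1 and Suz12 in batch 2. Batch 3 held Atrx, Cbx2, Cbx7, Jarid2 and Rnf2, and batch 4 held Kdm6a, Myc, Otx2 and Tfap2c. Ezh2, Kdm6b and Zfp57 were in batch 5, Zbtb17 in batch 6, and Bend3 in both batch 7 and batch 8. Ovol2, Smad2, Sox4, Wt1 and Zfp281 were in batch 9, and Chd4, Fos, Gtf2b, Hsf2, Junb, Mbd3, Mta2 and the Hdac1 Hdac3 double knockout in batch 10.

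The other tables held the Suz12 Eed double knockout with wild-type controls, in Epi and in PrE of E5.0, and GSK-J4, an inhibitor of the histone demethylases encoded by Kdm6a and Kdm6b, in Epi of E4.5 and of E5.0. The dose of GSK-J4 was 50 µM for E5.0 and no dose is stated for E4.5. Zbtb17, the gene of the transcription factor MIZ1, was perturbed in Epi of E4.5, in Epi of E5.0 by dTAG, a degradation tag that acts on the protein, and in embryoid bodies (EB), which form when stem cells of the embryo aggregate and differentiate, on days 0 to 3 with wild-type EB of the same days. The E4.5 libraries carry Zbtb17KO in their titles and a dTAG treatment in another label. The batch 8 libraries carry 6.0 in their titles and E5.0 as stage. Embryo groups had 3 libraries, except 2 in the batch 7 controls and in the Ascl2 knockout, and EB groups had 2. PrE control libraries 1 and 2 correlated at 0.996 over genes, against at most 0.979 for the other pairs of that table. They were averaged to 1 library, so PrE controls count as 2, and the 3 Aurkb libraries were averaged in the same way. The labels speak of biological replicates for the embryos. The EB table lists no gene names. Its 25006 values per library were read in the gene order of the screen table, which has as many, and every EB value below rests on that order. Mean EB levels of days 1 to 3 correlated with mean screen levels at 0.884 over genes in this order. When shifted by 1 or 2 places they correlated at 0.110 at most. The day 0 libraries did not enter this check. For EB nothing says that the 2 libraries of a group came from separate cultures, and p-values there measure only the spread between these libraries.

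Complex I is the first enzyme of the respiratory chain. It takes electrons from NADH at the tip of its matrix arm, passes them along a chain of iron-sulphur clusters to ubiquinone, and pumps protons through its membrane arm. The core subunits carry the cofactors and the quinone site, and the accessory subunits surround them and are needed for assembly and stability, many of them encoded by short transcripts. Around implantation the epiblast is known for a shift towards glycolysis. NRF1 and YY1 are transcription factors known to bind promoters of many respiratory chain genes.

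Stretches of member promoters are shown because the letters of 2 known binding sites were more frequent in them than in promoters at large. RefSeq promoters (GRCm38.p6, 250 bases before to 50 after each start) were found for 33 of the 37 members. The letters of the palindromic NRF1 site, with any base in the sixth place, occurred on either strand in 7 of 33 member promoters (21.2%) and in 5.19% of the promoters of all 27025 symbols. These 7 members are shown with 30 bases around a match, 5′ to 3′ on the strand of the gene, with the match in capitals. For Ndufb4, which has 3 matches, the one nearest to the start is printed.
Ndufa5, chr6:24527697-24527726, minus strand: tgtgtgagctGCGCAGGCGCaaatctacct
Ndufa6, chr15:82354249-82354278, minus strand: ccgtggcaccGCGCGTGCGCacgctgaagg
Ndufa8, chr2:36049349-36049378, minus strand: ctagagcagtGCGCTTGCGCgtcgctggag
Ndufa11, chr17:56717692-56717721, plus strand: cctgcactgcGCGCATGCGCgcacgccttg
Ndufb4, chr16:37654371-37654400, minus strand: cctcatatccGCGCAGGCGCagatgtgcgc
Ndufs5, chr4:123718265-123718294, minus strand: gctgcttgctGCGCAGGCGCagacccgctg
Ndufs6, chr13:73328479-73328508, minus strand: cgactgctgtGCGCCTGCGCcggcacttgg

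The letters of a YY1 site, printed in capitals below, occurred in 4 of 33 member promoters (12.1%) and in 0.75% of all. In all 4 the match lay on the strand of the gene, with its first base 24 to 35 bases after the annotated start, and it contains the letters of a start codon.
Ndufa9, chr6:126849096-126849125, minus strand: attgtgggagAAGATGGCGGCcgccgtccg
Ndufs4, chr13:114388045-114388074, minus strand: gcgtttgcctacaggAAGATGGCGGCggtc
Ndufs6, chr13:73328433-73328462, minus strand: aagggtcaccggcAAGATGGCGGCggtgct
Ndufs7, chr10:80249463-80249492, plus strand: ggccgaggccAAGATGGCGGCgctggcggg

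Ndufs6 held both sets of letters. An ETS-like site, CCGGAAG, was found in 4 member promoters (12.1%) and in 9.93% of all, so its share was close to the background. CACGTG, the E-box bound by MYC, was found in 2 (6.1% against 8.09%), and ATCGAT, a core given for MIZ1, in 0 against 1.02% of all. Both strands were searched for each, and no motif contains another. A match describes letters in a window and does not show binding.

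The targeted transcripts checked some labels. In the Suz12 Eed table Eed fell by 1.97 on the log2 scale in Epi and by 1.57 in PrE, and Suz12 fell by 1.07 and 0.93. In EB, Zbtb17 fell by 1.06 on day 1, 0.67 on day 2 and 0.36 on day 3. Of the screen knockouts described here, Ezh2, Zfp57, Tfap2c and, in batch 8, Bend3 showed a fall of the targeted transcript, while Kdm6b, Kdm6a, Mcrs1, Gtf2b and Zbtb17 showed no call for it. In the libraries labelled Nelfb knockout the Nelfb transcript had 13.8 to 26.7 TPM, each above the controls (9.99 to 12.5 TPM), and was not called (0.66, adjusted p = 0.298). Cxxc1 rose by 1.86 in the libraries labelled Cxxc1 knockout, and Bend3 by 1.03 in the batch 7 libraries labelled Bend3 knockout. C-CRISPR can leave a transcript in place and dTAG acts on protein, so a transcript that is not lower checks nothing. With dTAG, Zbtb17 had 1.67 to 5.20 TPM in controls and 5.77 to 6.94 TPM after treatment and was not called, and at E4.5 and on EB day 0 it was too low to be tested. Libraries held 3986 to 13512 genes at 1 TPM or more, and the fewest were in the Zbtb17 E4.5 table. TPM keep no read depth, so the depth behind each value is unknown.

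All 37 members were expressed. Over the 200 libraries their summed level ran from 6608 to 41681 TPM, and 36 or 37 of them reached 1 TPM in every library. Ndufa4 had the largest mean, 1237 TPM (234 to 4756). Ndufs1, a core subunit that carries iron-sulphur clusters, had the smallest, 89.5 TPM (3.70 to 179). TPM is a level per length, so genes can be ordered by it only as far as effects of length, shared reads and the overlaps given below allow. The next highest means were 1063 TPM for Ndufb8 of the distal arm, 1057 for Ndufab1, the mitochondrial acyl carrier protein, and 1053 for Ndufa7 of the matrix arm. These means pool unlike groups, and their order among the 3 does not hold in the screen controls, where the median over batches was 1088 TPM for Ndufa4, 1063 for Ndufab1, 974 for Ndufa7 and 866 for Ndufb8. Ndufv1, the subunit that binds NADH and FMN, was listed at 0 in 3 libraries, all of the Zbtb17 E4.5 table. Ndufs5 is uncertain, because its processed copy Ndufs5-ps has an entry of its own and the submitters' notes do not say how shared reads were assigned. In the GENCODE annotation exons of Gm42420, Gm20538 and Gm49356 overlap Ndufb2, Ndufb8 and Ndufb9 on the same strand. On the other strand exons of another gene overlap Ndufs1 (Eef1b2 and Ino80dos), Ndufb11 (Rbm10), Ndufa2 (Tmco6) and Ndufa13 (Tssk6), and also, among others, Ndufa3, Ndufa9, Ndufa11, Ndufab1, Ndufb2, Ndufb5, Ndufb6, Ndufs3 and Ndufs6. No source used here states whether counting used strand, so the values of these genes are uncertain to that degree.

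The first comparison set control PrE against control Epi and asks how complex I genes differ between these lineages. Most members were higher in PrE, and the few that were lower had long transcripts, most of them of core subunits. Differences are in log2(TPM + 1), tested with limma over all genes, and a member counts as called, and is said to have risen or fallen, at an adjusted p under 0.05. In PrE 20 members were higher and 4 lower, with a median difference of 0.54, while the median of all genes was -0.46. Of all genes 56.4% were called, 18.5% higher and 37.9% lower, so the members' higher calls stood above that background and their lower calls below it. The summed level of the 37 members was 16521 to 20519.7 TPM in Epi and 30229 to 31000.1 TPM in PrE. Fewer cells of a type and less RNA per cell cannot be told apart in such bulk samples. Of 14 PrE markers all 14 were higher in PrE, with sums of 3389.7 to 3908 TPM against 25.5 to 42.8 TPM in Epi. Of the epiblast markers 1 was higher and 7 lower in PrE, and their sum in PrE, 1167 to 1301 TPM, was not near 0 (2086 to 2673 TPM in Epi). Gata6 was listed at 0 in Epi and Fgf4 in PrE.

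The core subunits went both ways. Ndufv1 (chr19:4007384-4012806, minus strand, mm10) had 203, 249 and 165 TPM in the 3 control Epi libraries and 44.3, 43.4 and 48.3 TPM in the 3 control PrE libraries. Every PrE library was below every Epi library, and the difference was -2.12 (SE 0.204, adjusted p = 6.60e-07). Ndufs1 stood at 90.0, 126 and 82.3 TPM in Epi and 33.6, 30.1 and 43.5 TPM in PrE, again without overlap, a fall of 1.37 (adjusted p = 0.00252). By contrast Ndufv2, which carries an iron-sulphur cluster beside Ndufv1, was higher in PrE by 0.76, with 294, 296 and 353 TPM in Epi and 539, 451 and 571 TPM in PrE. Ndufs3, Ndufs7 and Ndufs8 differed by -0.06, -0.29 and -0.05 and were not called.

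Accessory subunits were mostly higher in PrE. Of the matrix arm 4 of 9 rose and 0 fell, of the proximal membrane arm 5 of 9 rose and 1 fell, and of the distal membrane arm 9 of 11 rose and 0 fell. Their median differences were 0.38, 0.78 and 1.04, against -0.29 for the core. Ndufv3, a small subunit at the tip of the matrix arm, rose the most, with 353, 239.6 and 291 TPM in Epi and 874, 942 and 770.3 TPM in PrE, a difference of 1.52 (SE 0.212, adjusted p = 2.69e-05). It sits beside Ndufv1 in the enzyme and moved the other way. Ndufa12, a matrix arm subunit related to an assembly factor, had 689, 381 and 698 TPM and 1519.6, 1462 and 1460.3 TPM, a difference of 1.38 (adjusted p = 2.90e-04). Ndufa1, an X-linked subunit of the proximal membrane arm needed for assembly, had 423, 307 and 393 TPM in Epi and 1035, 913 and 1007 TPM in PrE, a difference of 1.41 (adjusted p = 5.78e-04). PrE levels of these 3 genes lay above all Epi levels.

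In the distal arm Ndufb10, Ndufb11 and Ndufb8 rose by 1.33, 1.24 and 1.23. Ndufb10 had 454, 380.3 and 468 TPM in Epi and 1063, 1109 and 1095 TPM in PrE, so the levels in PrE were about even and all above Epi. The single accessory subunit that fell, named for that reason after its values were seen, was Ndufa10, a subunit of the proximal arm that resembles a nucleoside kinase, with 274, 273 and 295 TPM in Epi and 137, 158 and 124 TPM in PrE, a difference of -1.05 (adjusted p = 1.19e-04). Ndufa4, given in each comparison where it was called because it stands outside the 4 roles, rose by 0.73. Ndufs1, Ndufa10 and Ndufv1, which fell, have long transcripts of 2590, 2020 and 1661 bases. Ndufv2, which rose, has one of 1697 bases. The plot of TPM by library shows 36 of the 37 genes in the 4 groups of this table.

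**Figure D1:**
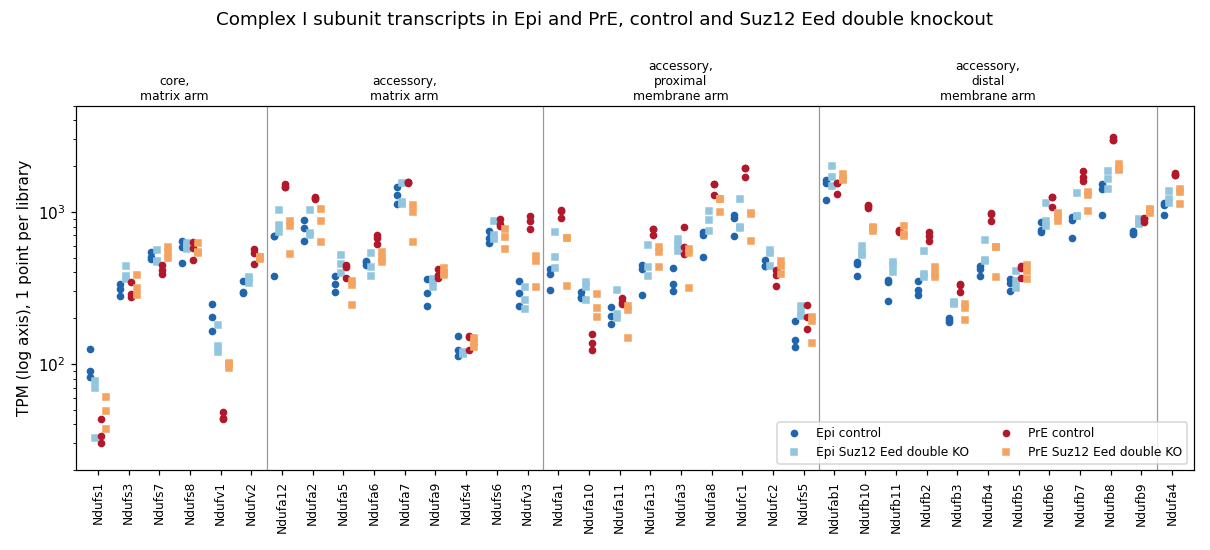
Level of 36 of the 37 members in control and Suz12 Eed double-knockout Epi and PrE (TPM, log axis), one point per library, with the genes grouped by role. Of the 4 groups, control PrE is the lowest for Ndufv1 (44.3, 43.4 and 48.3 TPM) and the highest for Ndufa12 (1519.6, 1462 and 1460.3 TPM).

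Transcript length moved with these differences among the members. The members' transcripts have a median of 758 bases and those of all genes a median of 1921. The 16 members of up to 700 bases had a median difference of 0.71 between PrE and Epi, with 11 higher and 0 lower, while all 854 tested genes of that length had a median of -0.23. The 9 members of over 700 and up to 1000 bases had 0.73 against -0.33, and the 6 of up to 1500 bases had 0.36 against -0.64. The 6 members of over 1500 and up to 3000 bases had -0.89 against -0.73, with 1 higher and 4 lower. The medians of the short members lay above those of other genes of their length, and that of the longest class lay below 0 as did that of all genes. With values centred on a curve of length within each library, chosen after seeing the data, 28 higher and 2 lower members were called. Under that setting Ndufa10 lost its call and Ndufs3 was called higher, at 0.40. Under quantile normalization, which moved the median of all genes from -0.46 to -0.11, the counts were 19 higher and 5 lower. What part length, or the RNA and amplification it can reflect, has in the result was not tested.

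Other genes of energy metabolism were counted in the same comparison. Of 10 complex IV genes 6 rose and 1 fell in PrE, with Cox7c at 1.38 and Cox5b at 0.83. Complex III had 2 higher and 3 lower of 9, where Cyc1 and Uqcrc1 fell (-1.71 and -1.41), and complex II had 1 higher and 2 lower of 4, where Sdha fell (-0.93) and Sdhc fell (-0.71). ATP synthase had 6 higher and 4 lower of 15, and among these Atp5d and Atp5b fell (-1.67 and -1.58). Complex I assembly factors split as well, 4 higher and 6 lower of 15, with Ecsit at -2.95 and Tmem126b at 2.21. Glycolytic enzymes fell in PrE, 14 of 15 with 1 higher and a median of -2.05, led by Ldhb (-4.56) and Pkm (-3.55). Of 7 tested regulators of respiratory chain genes 6 fell and 0 rose. Myc fell by 5.77 and Nrf1 by 2.84.

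The Suz12 Eed double knockout removes 2 subunits of the Polycomb repressive complex that methylates histone H3, and the comparison asks what its loss does in each lineage. In PrE most accessory members that were called fell and the called core members rose. There 4 rose and 12 fell, with a median of -0.35 against 0.40 over all genes, of which 26.6% were called, 21.4% higher and 5.18% lower. Falls made up a larger share of the members than of all genes. The summed level went from 30229 to 31000.1 TPM in control PrE to 20614 to 24916 TPM in double-knockout PrE.

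Ndufv1 had 44.3, 43.4 and 48.3 TPM in control PrE and 94.3, 101 and 99.6 TPM in double-knockout PrE. The groups did not overlap, and the difference was 1.08 (SE 0.204, adjusted p = 0.00146). All double-knockout PrE values stayed below the control Epi values of the same gene. The core subunit Ndufs7, at the quinone site, rose by 0.38, and no core subunit fell. Ndufs1 (0.36), Ndufs3 (0.14), Ndufs8 (0.07) and Ndufv2 (-0.09) were not called. Ndufa10, the accessory subunit that was low in control PrE, rose by 0.81, from 137, 158 and 124 TPM to 233, 203 and 287 TPM.

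Among accessory subunits 4 of the matrix arm, 2 of the proximal arm and 5 of the distal arm fell, and Ndufa4 fell too (-0.45). Ndufc1, a small subunit of the proximal arm, went from 1932, 1690.0 and 1947 TPM in control PrE to 986, 975 and 642 TPM, a difference of -1.14 (SE 0.215, adjusted p = 0.00146). Ndufa12 went from 1519.6, 1462 and 1460.3 TPM to 869, 807 and 529.7 TPM (-1.04, adjusted p = 0.00718), and Ndufv3 from 874, 942 and 770.3 TPM to 510.1, 474 and 322 TPM (-0.97, adjusted p = 0.00388). In all 3 genes the third double-knockout library was the lowest. Ndufa1, Ndufb4 and Ndufa7 fell by 0.90, 0.90 and 0.82.

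The count rests on few PrE controls. Without the averaged control pair 6 members were called, and 4 without control 3, in place of 16. Ndufa1, Ndufa4, Ndufa7, Ndufa12 and Ndufs7 lost their calls in both cases, Ndufv3 without the pair, and Ndufa10 and Ndufb4 without control 3. Without double-knockout library 3 Ndufa1, Ndufa4 and Ndufs7 also lost theirs, as did Ndufs7 without library 1. Length again moved with the result: members of up to 700 bases had a median of -0.47 (0 rose and 8 fell) against 0.02 for all genes of that length, and members of over 1500 and up to 3000 bases had 0.43 against 0.54. Adjusted for length, the calls were 0 higher and 22 lower, so that Ndufv1 (0.45, adjusted p = 0.0774), Ndufa10 (0.22, 0.386) and Ndufs7 (0.06, 0.798) were not called. Ndufa1 lost its call under quantile normalization and without the filter, and Ndufs7 with library weights. Markers of trophectoderm and extraembryonic ectoderm moved as well, with sums of 756 to 836 TPM against 231 to 307 TPM in control PrE and 2 higher and 0 lower of 7 tested; Cdx2 and Elf5 were listed at 0 in control PrE. PrE markers were 4 higher and 0 lower of 14 tested, and epiblast markers 1 higher and 3 lower of 7 tested. The part of these cells or of length in the result was not tested.

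In Epi the double knockout had 2 members higher and 0 lower, where limma called 9.13% of all genes, 4.48% higher and 4.65% lower, and the median of the members was 0.23 against -0.13. Without adjustment 17 members had a p under 0.05. The 2 were Ndufa3, a small subunit of the proximal arm, and Ndufb11 of the distal arm. Ndufa3 had 429.8, 299.7 and 335 TPM in control Epi and 666, 608 and 552 TPM in double-knockout Epi (0.79, adjusted p = 0.0248), and Ndufb11 had 355, 258 and 347 TPM and 469, 402 and 449.8 TPM (0.47, adjusted p = 0.0427). Neither pair of groups overlapped. No core member was called, with Ndufs1 at -0.80, Ndufv1 at -0.51, Ndufv2 at 0.19, Ndufs3 at 0.34, Ndufs7 at -0.03 and Ndufs8 at 0.10. Leaving out any library but double-knockout 3 left 0 or 1 member, and adjusted for length or without the filter neither was called. Same-numbered Epi libraries deviated together, and with the replicate number as a block 7 members were called, 6 higher and 1 lower, with Ndufs1 called lower. Trophectoderm and extraembryonic ectoderm markers summed to 2249 to 2909.9 TPM in the double knockout and 557 to 731 TPM in control Epi (4 higher and 1 lower of 10 tested), epiblast markers were 0 higher and 6 lower of 10 tested, and the part of such cells in the result was not tested.

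The difference between the lineages was itself tested with an interaction term. It was called for 2 members upwards, where the change in PrE was above that in Epi, and 15 downwards, against 19.1% of all genes, 15.0% higher and 4.16% lower. The median was -0.62 against 0.45. Ndufa12 (-1.61), Ndufa1 (-1.45) and Ndufb4 (-1.27) led on the negative side and Ndufv1 (1.59) on the positive side. Without the PrE control pair 9 were called, and 8 without PrE control 3. The PrE controls enter both this term and the lineage comparison above, so their values are given side by side only. In PrE the double knockout also changed glycolytic enzymes, 12 higher and 1 lower of 14 (Ldhb 2.48, Pfkm 1.55). Complex IV had 1 higher (Cox6a1, 0.77) and 3 lower, led by Cox7c (-1.67), and assembly factors had 2 higher and 2 lower, with Timmdc1 at -1.65 and Ecsit at 1.29.

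GSK-J4 was compared with untreated Epi at both stages, which asks what blocking the demethylases does. At E5.0 the members mostly fell, 11 against 3 that rose, with a median of -0.20 against 0.12 over all genes. Of all genes 28.3% were called, 16.6% higher and 11.7% lower. Members of up to 700 bases had a median of -0.21 against -0.20 for all genes of that length, of which 23.1% were lower. Those of over 700 and up to 1000 bases had -0.10 against -0.07, and 23.4% of such genes were lower. Those of up to 1500 bases had -0.23 against -0.04, and those of up to 3000 bases -0.21 against 0.14. The part of length was not tested. The largest fall was that of Ndufc2, a subunit of the proximal membrane arm, from 557, 583 and 559.6 TPM in controls to 301, 308 and 369 TPM with GSK-J4. Every treated library was below every control, and the difference was -0.80 (SE 0.0978, adjusted p = 8.97e-04). The NADH-binding Ndufv1 fell from 257, 266 and 293 TPM to 164, 168 and 145 TPM (-0.77, adjusted p = 0.00169), again without overlap. Ndufs8, which carries iron-sulphur clusters, and Ndufs3, a core subunit beside it, fell by 0.70 and 0.55, Ndufa11 and Ndufs5 of the proximal arm by 0.64 and 0.61, and Ndufb5 of the distal arm by 0.62.

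Ndufa13, also known as GRIM-19, went the other way, from 288, 309.8 and 316 TPM to 415, 465 and 443 TPM, a rise of 0.53 (adjusted p = 0.00326). Ndufa7 and Ndufa2 of the matrix arm, named because only 3 members rose, were the other 2. By role, 3 core subunits, 4 of the proximal arm and 3 of the distal arm fell, no accessory subunit of the matrix arm fell, and Ndufa4 fell (-0.40). Leaving out controls 1, 2 or 3 left 9, 8 or 7 called members in place of 14, and Ndufs3 and Ndufs5 were lost each time. Both were also lost without the filter, and Ndufs5 with a pseudocount of 0.1 and with the replicate block. Ndufa4 lost its call without control 2 or 3 and under quantile normalization. Quantile normalization, which moved the median of all genes from 0.12 to -0.14, gave 4 higher and 7 lower, and adjustment for length gave 1 higher and 17 lower. Nuclear genes of the other complexes fell with them, 4 of 9 in complex III (Uqcrfs1 -0.51), 6 of 10 in complex IV (Cox4i1 -0.54, Cox5a -0.47) and 6 of 15 in ATP synthase (Atp5g1 -1.01, Atp5j -0.61), with 0 higher in each. Glycolytic enzymes had 7 higher and 2 lower of 15, with Ldhb at -2.38 and Pfkl at 1.29. PrE markers rose, 14 of 14, from sums of 17.4 to 22.8 TPM to 1353 to 1588 TPM, with Gata6 listed at 0 in controls, and their part in the members' result was not tested.

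At E4.5 limma called 0 members higher and 0 lower with GSK-J4, where 1.15% of all genes, 0.611% higher and 0.541% lower were called, and 6 members had an unadjusted p under 0.05. The median was 0.07 against 0.01 over all genes. Ndufc2, named here because it led at E5.0, had 257, 189 and 252 TPM in controls and 303, 229 and 239.9 TPM with GSK-J4, a difference of 0.15 (adjusted p = 0.854). The stages are in separate tables and their difference was not tested.

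Zbtb17 was perturbed in 4 tables, and Ndufa5 and Ndufa7 fell with dTAG at E5.0, in the screen and on each of the 4 EB days. No other member was called lower in all of these, and both were named on that ground after their values were seen. Ndufa5 (chr6:24518666-24528013, minus strand, mm10) encodes an accessory subunit of the matrix arm, and its RefSeq promoter holds the NRF1-like letters printed above, whose first base lies 26 or 190 bases before the 2 annotated starts. GENCODE lists no exon of another gene over it. With dTAG at E5.0 it had 320.0, 286 and 345 TPM in controls and 137, 131 and 110.3 TPM after degradation. All degraded libraries were below all controls, and the difference was -1.32 (SE 0.118, adjusted p = 8.09e-05), or 0.398 of the control mean. In the screen it had 271, 362 and 351 TPM in the batch 6 controls and 54.0, 99.7 and 152 TPM in the Zbtb17 knockout. The difference was -1.79 (SE 0.167, adjusted p = 2.57e-16). This SE and p use a spread shared by all screen groups and do not measure that of these libraries alone. The Zbtb17 knockout libraries correlated at 0.876 to 0.911, against 0.967 to 0.970 for the batch 6 controls. Of 40 screen knockouts the Zbtb17 knockout had the lowest change of Ndufa5, and the next lowest was that of Mcrs1, -0.78. At E4.5 it had 588, 633 and 725 TPM in controls and 637, 519 and 675 TPM in the libraries titled knockout, which overlap, with a difference of -0.09 (SE 0.216, adjusted p = 0.936).

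In EB Ndufa5 fell on every day, with genes known by row order only and day 0 outside the check of that order. On day 0 it had 548 and 542 TPM in wild type and 404 and 407 TPM in the knockout. On day 1 the values were 139 and 127 TPM and 71.6 and 73.2 TPM, and on day 2 147 and 129 TPM and 106 and 109.7 TPM. On day 3 they were 193 and 173 TPM and 156 and 159 TPM. No day overlapped, and the knockout was lower by 0.43, 0.87, 0.35 and 0.21 on days 0 to 3. The change on day 3 was smaller than on day 1 by an interaction term of 0.66 (SE 0.0946, adjusted p = 2.00e-04). Its day 0 call was lost under quantile normalization (-0.17, adjusted p = 0.0931), and its day 3 call (adjusted p = 0.0182) was lost without wild-type library 1 (0.172), knockout library 1 (0.0847) or knockout library 2 (0.0530).

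**Figure D2:**
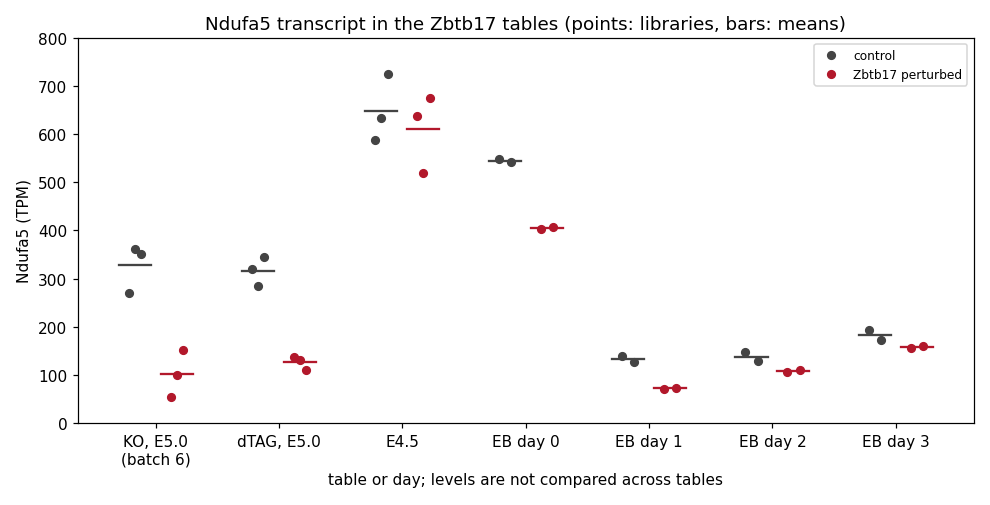
Ndufa5 level (TPM) in each library of the 4 Zbtb17 tables, control in grey and perturbed in red, with bars at the group means. The groups are apart in the screen (batch 6), with dTAG and on each EB day, and they overlap at E4.5.

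Further members fell with dTAG, most of them accessory. Altogether 12 fell and 1 rose, where 11.7% of all genes were called, 7.20% higher and 4.49% lower, and the medians were -0.16 and 0.14. Among all genes of up to 700 bases 12.7% were lower, and 7 of the 16 members of that length. The part of length was not tested. Ndufa7, a small subunit of the matrix arm, went from 2128, 2021 and 2236 TPM to 1434, 1351 and 1482 TPM without overlap (-0.58, adjusted p = 1.17e-04). In the screen it had 853, 903 and 1179 TPM in the batch 6 controls and 659.8, 648 and 923 TPM in the Zbtb17 knockout (-0.40, adjusted p = 0.00564), and that call was lost without control 3 (adjusted p = 0.141) or knockout library 2 (0.0662), in a fit of batch 6 alone (0.253) and adjusted for length (0.281). In EB it changed by -0.40, -0.12, -0.18 and -0.44 on days 0 to 3, and the day 1 call was lost without any 1 of the 4 libraries of that day. At E4.5 its difference was 0.01 (adjusted p = 0.991). Ndufa2, Ndufc1, Ndufa13, Ndufv3, Ndufb8 and Ndufa8 fell by 0.54, 0.53, 0.52, 0.50, 0.44 and 0.38. Ndufa10, the one that rose, went up by 0.34 (adjusted p = 0.0475), and this call was lost without the filter, with a pseudocount of 0.1, with library weights, adjusted for length and without any library but control 55. By role, 5 of 9 accessory matrix, 3 of 9 proximal, 2 of 11 distal and 1 of 7 core subunits fell, and Ndufa4 fell (-0.21, adjusted p = 0.0291), a call lost without any 1 library, without the filter, under quantile normalization and adjusted for length. Assembly factors had 3 lower and 0 higher, among them Ndufaf3 (-0.98) and Ndufaf6 (-0.84). Complex III had 3 lower and 0 higher, with Uqcrh at -0.52 and Uqcr11 at -0.32. Trophectoderm and extraembryonic ectoderm markers were 7 higher and 0 lower of 8 tested, with sums of 946 to 970.4 TPM in controls and 1678 to 1773 TPM after dTAG. PrE markers were 5 higher and 0 lower of 11 tested, with sums of 30.6 to 33.5 and 244 to 286 TPM and Foxa2 listed at 0 in controls, and the part of either in the result was not tested.

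In the screen the Zbtb17 knockout had 2 members higher and 11 lower, against 30.3% of all genes, 10.5% higher and 19.9% lower. Among all genes of up to 700 bases 31.6% were lower, and 5 of the 16 members of that length. In a fit of batch 6 alone 0 higher and 1 lower were called, with library weights 0 higher and 5 lower, 1 higher and 7 lower when control 3 was left out, and with the length adjustment 5 higher and 3 lower. Trophectoderm and extraembryonic ectoderm markers summed to 3924 to 5803 TPM there and 1285 to 1682 TPM in the controls (5 higher and 0 lower of 8 tested, with Cdx2 listed at 0 in the knockout), and the part of such cells was not tested. At E4.5 limma called 0 members higher and 0 lower, where 0.131% of all genes, 0.131% higher and 0% lower were called, with 0 members at an unadjusted p under 0.05. The libraries of that table held 3986 to 4565 (control) and 4678 to 4952 (knockout) genes at 1 TPM or more.

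Other members of the EB table moved both ways. The knockout had 11 members higher and 7 lower on day 0 (against 59.8% of all genes, 47.8% higher and 12.0% lower), 11 and 7 on day 1 (against 36.5% of all genes, 16.5% higher and 20.0% lower), 11 and 5 on day 2 (against 42.8% of all genes, 17.9% higher and 24.9% lower) and 16 and 12 on day 3 (against 55.1% of all genes, 20.9% higher and 34.3% lower). The share of members called was below the background on day 0, above it on days 1 and 3 and close to it on day 2. Adjusted for length the splits were 7 higher and 24 lower on day 0 and 7 higher and 9 lower on day 1. They were 3 higher and 10 lower on day 2 and 7 higher and 13 lower on day 3. Under that setting 25.6%, 37.7%, 43.4% and 53.8% of all genes were called on days 0 to 3. On day 0 it tested 14461 genes in place of 6864, and the share of members called then lay above that of all genes. On day 1, 9 were called without wild-type library 1. Ndufa1 rose on each day. It had 1168 and 1164 TPM in wild type and 2104 and 2074 TPM in the knockout on day 0, and 98.1 and 113 TPM and 191 and 211 TPM on day 3. The groups did not overlap on any day, and the changes were 0.84, 0.68, 0.57 and 0.93. With dTAG Ndufa1 had 597, 680.1 and 709.7 TPM and 783, 736 and 730.4 TPM and was not called (0.18, adjusted p = 0.161).

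Ndufa13, Ndufa8, Ndufs7 and Ndufb7 rose on day 0 by 0.91, 0.67, 0.58 and 0.57, and Ndufa11 fell by 0.44. Day 0 stands apart in these libraries, since they held 5970.0 to 5986 (wild type) and 6966 to 6983 (knockout) genes at 1 TPM or more and epiblast marker sums of 119 to 124 and 139.9 to 141 TPM, against 5346 to 5426 and 5030.1 to 5032 TPM on day 1. On day 1 Ndufc2, Ndufa12, Ndufb7 and Ndufa11 rose by 0.40, 0.37, 0.36 and 0.32, and Ndufs1 and Ndufs8 fell by 0.36 and 0.33. On day 2 Ndufb5, Ndufb7, Ndufb2 and Ndufa11 rose by 0.37, 0.35, 0.29 and 0.28, Ndufv3 changed by -0.37 and Ndufb9 by 0.29. Ndufb7 lost its call on days 1 and 2 without wild-type library 1 of the day, on day 1 also without knockout library 1, and on day 2 also without knockout library 2, as did Ndufb5. Adjusted for length, the day 2 calls of Ndufb7 (0.20, adjusted p = 0.103), Ndufb2 (0.12, 0.0646) and Ndufa11 (0.12, 0.172) were lost.

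The largest EB changes were on day 3. Ndufs5, with the reservation made above, had 24.5 and 27.9 TPM in wild type and 60.9 and 57.4 TPM in the knockout (1.15, adjusted p = 5.94e-06), while on day 1 it had 72.3 and 62.6 TPM and 65.3 and 77.0 TPM. Ndufv3 had 389 and 365 TPM in wild type and 184 and 172 TPM in the knockout (-1.08, adjusted p = 1.03e-08). Both genes moved during the wild-type course, and the knockout was nearer to day 1. Between days 1 and 3 of wild type Ndufv3 rose by 1.37, from 145 and 144 TPM, and Ndufs5 fell by 1.33. The wild-type course had 14 members higher and 11 lower on day 3, where 69.8% of all genes, 31.9% higher and 37.9% lower were called, or 19 higher and 7 lower under quantile normalization and 20 higher and 3 lower adjusted for length. Ndufs4, Ndufv2, Ndufa12, Ndufc2 and Ndufc1 rose by 0.99, 0.83, 0.57, 0.55 and 0.49, and Ndufb6 fell by 0.86.

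In the day 3 knockout Ndufb6 (0.58) and Ndufb7 (0.53) rose, and Ndufs4 (-0.51), Ndufv2 (-0.44) and Ndufa7 (-0.44) fell. The knockout effect differed between days 3 and 1 for 11 members upwards and 9 downwards by the interaction term (against 39.0% of all genes, 16.8% higher and 22.2% lower). Wild-type day 3 and day 1 libraries enter both the course and the knockout changes. Of glycolytic enzymes 15 rose and 0 fell on day 0, with Aldoa at 1.12 and Tpi1 at 1.04, and 2 rose and 12 fell on day 3, with Pfkp at 1.31 and Tpi1 at -1.24. Trophectoderm and extraembryonic ectoderm markers in the day 3 knockout were 6 higher and 2 lower of 9 tested, with sums of 171 to 174 TPM in wild type and 159 to 161 TPM in the knockout and Elf5 listed at 0 in wild type, and their part was not tested.

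The screen compared each of 40 knockouts with the controls of its batch, to find which factors change expression in Epi. Over its 1480 pairs of member and knockout, 151 were called higher and 141 lower, together 19.7%. Of all gene and knockout pairs 10.1% were called, 5.08% higher and 5.06% lower. In 28 knockouts at least 1 member was called and in 12 none, under limma with 1 fit for all batches. Of the called pairs 1 higher and 4 lower belong to Aurkb, whose near-identical libraries were averaged to 1, so its spread is that of the other groups. Adjusted for length, 108 higher and 203 lower pairs were called. The share of all genes called under that setting is not given here for the screen. No length-adjusted split of the screen can therefore be set against a background. The 6 knockouts with most called members were those of Kdm6b, Bend3 in batch 8, Zfp57 and Ezh2 and the libraries labelled Nelfb and Cxxc1. Ndufv3 was called higher in 13 knockouts and lower in 1, and Ndufb9 in 8 and 1. Core members Ndufs3 and Ndufs8 were each lower in 5 and higher in 0, while Ndufa4 was higher in 6 and lower in 10. These 5 members were picked after their values were seen, and knockouts of 1 batch share their controls.

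**Figure D3:**
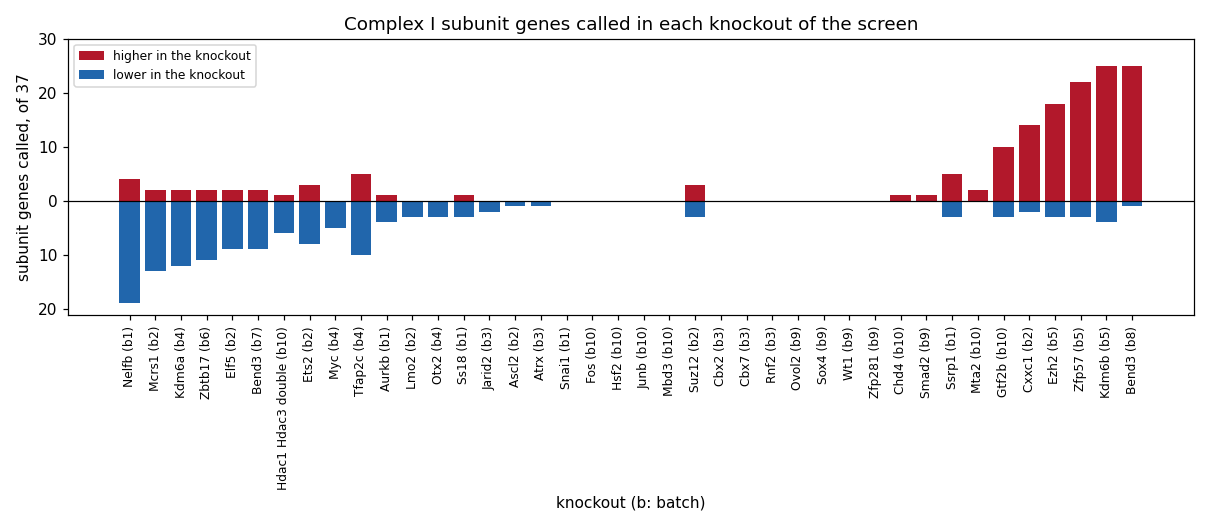
Number of the 37 members called higher or lower (adjusted p under 0.05) in each of the 40 screen knockouts. The Kdm6b bars reach 25 higher and 4 lower, and those of Nelfb 4 higher and 19 lower.

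Batch 5 held 3 knockouts with many calls, Kdm6b (25 higher and 4 lower, against 22.7% of all genes, 5.95% higher and 16.8% lower), Zfp57 (22 and 3, against 16.8% of all genes, 5.37% higher and 11.5% lower) and Ezh2 (18 and 3, against 26.8% of all genes, 12.3% higher and 14.5% lower). Kdm6b encodes a histone demethylase, Zfp57 a zinc finger protein that guards imprints, and Ezh2 the catalytic subunit of the Polycomb complex. All 3 were compared with the same 3 controls, so their likeness is not independent. Ndufa1 had 235, 229 and 212 TPM in the controls. It had 481, 511 and 454 TPM in the Kdm6b, 393, 543 and 436 TPM in the Zfp57 and 427, 464 and 664 TPM in the Ezh2 knockout. Every knockout library was above every control, and the rises were 1.09 (SE 0.149, adjusted p = 3.75e-09), 1.00 (adjusted p = 9.91e-08) and 1.17 (adjusted p = 2.40e-10). Ndufv3 rose in the Zfp57 (1.00) and Ezh2 (1.03) knockouts. Ndufb7 of the distal arm rose in the same 2 (0.76 and 0.71), and Ndufb4 rose in the Ezh2 knockout from 313, 298 and 371 TPM to 519.7, 641 and 589.6 TPM (0.83).

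Some core subunits fell in this batch. Ndufv1 had 239, 202 and 117 TPM in the controls, where the third library was low, and 81.7, 94.1 and 74.9 TPM in the Kdm6b knockout, a difference of -1.09 (SE 0.205, adjusted p = 1.44e-05). In the Zfp57 and Ezh2 knockouts this gene overlapped the controls. Ndufs1 fell by 1.00 in the Kdm6b and by 0.97 in the Zfp57 knockout. Both Ndufs1 calls were lost under quantile normalization and in a fit of batch 5 alone, the first also adjusted for length (adjusted p = 0.0501), and the second also without Zfp57 library 2. By role, the Kdm6b knockout had 11 of 11 distal, 7 of 9 accessory matrix and 6 of 9 proximal subunits higher, with 1 proximal and 3 core subunits lower. The Zfp57 knockout had 10, 8 and 3 higher and 3 core subunits lower, and the Ezh2 knockout 9, 3 and 4 accessory and 1 core higher with 3 core lower.

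With Kdm6b the members of up to 700 bases had a median of 0.62 against 0.32 for all genes of that length, and those of over 1500 and up to 3000 bases had -0.72 against -0.48. The Kdm6b split adjusted for length was 30 higher and 2 lower. Among all genes of up to 700 bases 27.4% were higher with Kdm6b, 21.9% with Zfp57 and 20.1% with Ezh2. Of the 16 members of that length 15, 13 and 9 were higher. The part of length was not tested. For Ezh2 12 members were called in a fit of batch 5 alone and 13 without knockout library 3. For Zfp57 these were 13 in batch 5 alone and 14 without knockout library 2. Complex IV rose in all 3, 10, 9 and 7 of 10 with 0 lower in each, with Cox6b1 at 0.74 in the Kdm6b knockout, Cox5b at 0.60 in the Zfp57 and Cox6a1 at 0.58 in the Ezh2 knockout. Glycolytic enzymes fell in all 3, 11, 12 and 11 with 0 higher in each, with Pfkl at -1.76 in the Kdm6b knockout and Pfkp at -2.60 and -2.37 in the other two. PrE markers summed to 43.0 to 58.0 TPM in the controls, 4.27 to 8.44 TPM in the Kdm6b, 151 to 158 TPM in the Zfp57 and 1627 to 1674 TPM in the Ezh2 knockout (7 higher and 0 lower of 9 tested). In the Kdm6b knockout Foxa2 and Sox7 were listed at 0. The part of such cells in these results was not tested.

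Nelfb encodes a subunit of the negative elongation factor, which holds RNA polymerase near the promoter. In the libraries labelled Nelfb knockout, where the Nelfb transcript was not lower, 4 members rose and 19 fell, against 21.4% of all genes, 11.7% higher and 9.71% lower, with medians of -0.38 for the members and 0.07 for all genes. Ndufa2, a matrix arm subunit with a thioredoxin-like fold, went from 639, 640.2 and 655 TPM in the batch 1 controls to 258, 209 and 249 TPM. The groups were far apart, and the difference was -1.43 (SE 0.125, adjusted p = 9.16e-18). Ndufb2, Ndufa7 and Ndufa12 fell by 1.05, 1.02 and 0.93. Of the distal arm 7 fell, and 5 of the accessory matrix, 5 of the proximal and 2 of the core subunits. The core gene Ndufs1 rose by 0.78 and was named after its values were seen. Its call was lost adjusted for length (0.65), under quantile normalization, and without control 1, control 3 or library 2 labelled knockout. The length-adjusted split was 0 higher and 26 lower. Among all genes of up to 700 bases 25.8% were lower, and among those of over 700 and up to 1000 bases 22.9%. Of the members of these lengths 10 of 16 and 4 of 9 were lower. The part of length was not tested. Complex IV fell too, 6 of 10 with 0 higher (Cox7b -0.62, Cox7a2 -0.50). PrE markers were 10 higher and 2 lower of 13 tested, with sums of 672 to 702 TPM against 93.8 to 107 TPM in the controls, and their part was not tested.

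In the libraries labelled Cxxc1 knockout, whose Cxxc1 transcript was higher than in controls, 14 members rose and 2 fell, against 21.4% of all genes, 12.3% higher and 9.15% lower. Ndufb11 went from 334, 392 and 357 TPM in the batch 2 controls to 582, 671 and 623 TPM, without overlap (0.79, SE 0.131, adjusted p = 7.28e-07). Ndufa1, Ndufb6 and Ndufv3 rose by 0.75, 0.72 and 0.70. Adjusted for length 3 higher and 4 lower members were called, and Ndufb6 and Ndufv3 lost their calls. Among all genes of up to 700 bases 20.4% were higher, and 7 of the 16 members of that length. The part of length was not tested. PrE markers were 8 higher and 0 lower of 14 tested, with sums of 437 to 508 TPM against 122 to 132 TPM, and their part was not tested. Mcrs1, which shares these controls, had 2 members higher and 13 lower (against 17.0% of all genes, 9.93% higher and 7.03% lower). Adjusted for length the Mcrs1 split was 0 higher and 17 lower. Among all genes of up to 700 bases 15.4% were lower there, and 9 of the 16 members of that length. PrE marker sums were 861 to 991 TPM with Mcrs1 (12 higher and 0 lower of 14 tested). The part of length or of such cells was not tested.

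In batch 4 the knockouts of Kdm6a, the other demethylase, and of Tfap2c had more members lower than higher, 12 against 2 higher (against 9.33% of all genes, 5.58% higher and 3.76% lower) and 10 against 5 (against 13.5% of all genes, 8.20% higher and 5.29% lower). Members of this batch were named after their values were seen, and both knockouts share 3 controls. Ndufb4 of the distal arm had 409, 353 and 372 TPM in the controls and 225, 245 and 261 TPM in the Kdm6a knockout, a fall of 0.63 (adjusted p = 3.55e-04). Ndufv1 rose in both, from 126, 129 and 136 TPM to 248, 263 and 228 TPM in the Kdm6a and 215, 228 and 200.1 TPM in the Tfap2c knockout. No library overlapped the controls, and the rises were 0.91 (adjusted p = 8.17e-04) and 0.71 (adjusted p = 0.00972). The rise with Tfap2c was not called when adjusted for length (0.40, adjusted p = 0.105). With library weights the Kdm6a split was 3 higher and 19 lower. Adjusted for length the splits were 1 higher and 22 lower for Kdm6a and 1 higher and 18 lower for Tfap2c. Among all genes of up to 700 bases 16.2% were lower with Kdm6a and 12.0% with Tfap2c. Of the 16 members of that length 5 and 4 were lower. The part of length was not tested. PrE markers were 0 higher and 4 lower of 7 tested for Kdm6a and 0 higher and 7 lower of 8 tested for Tfap2c, and their part was not tested. The Kdm6a and Kdm6b knockouts lie in different batches, and their difference was not tested. Gtf2b in batch 10 had 10 higher and 3 lower (against 15.4% of all genes, 10.4% higher and 5.00% lower), or 2 higher and 5 lower adjusted for length and 18 higher and 4 lower in a fit of batch 10 alone, with PrE markers 8 higher and 1 lower of 12 tested.

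Bend3, a gene of a BEN domain repressor, was targeted in 2 batches with unlike outcomes. The batch 8 titles carry a later stage than those of batch 7, so batch and titled stage cannot be told apart. Of the members 25 rose and 1 fell in batch 8 (against 28.7% of all genes, 15.3% higher and 13.3% lower), with a median of 0.48 against 0.01, while in the batch 7 libraries labelled Bend3 knockout 2 rose and 9 fell (against 38.8% of all genes, 10.6% higher and 28.2% lower), with -0.10 against -0.32. Ndufb3 of the distal arm had 118, 107 and 86.8 TPM in the batch 8 controls and 247, 247 and 251 TPM in the knockout, without overlap (1.26, SE 0.121, adjusted p = 2.20e-15). In batch 7 it had 73.9 and 60.9 TPM in the controls and 46.3, 60.7 and 53.0 TPM in the libraries labelled knockout, -0.33 (adjusted p = 0.0408), a call that was lost in 9 of the settings tried, among them a fit of batch 7 alone (adjusted p = 0.797), library weights (0.560), quantile normalization (0.518), the length adjustment (0.705) and each omission of control 1 (0.381), library 1 (0.181) or library 3 (0.0958) labelled knockout. Ndufb11 went from 79.7, 90.0 and 114 TPM to 142, 199.8 and 211 TPM in batch 8 and from 171 and 179 TPM to 72.2, 143 and 106 TPM in batch 7, a fall of 0.76 that was lost with library weights and in a fit of batch 7 alone, so the 2 changes had opposite signs. Ndufa1 and Ndufv2 rose in batch 8 by 1.08 and 0.97. The difference of the 2 effects was tested with an interaction term added after seeing the data. Its median was 0.53 over the members and 0.32 over all genes, so both lay on the same side. Of the members 22 were called higher in batch 8 and 1 lower, against 31.2% of all genes in either direction. Without batch 7 control 2 this was 14 in all, and adjusted for length 10 higher and 3 lower. In place of the 11 members called in batch 7, limma called 0 in a fit of that batch alone and 2 with library weights. The batch 7 split was 10 higher and 5 lower under quantile normalization and 4 higher and 5 lower adjusted for length. In batch 8 the members of up to 700 bases had a median of 0.56 against 0.51 for all genes of that length. Of those genes 38.4% were higher. Members of over 700 and up to 1000 bases had 0.65 against 0.44, and those of up to 1500 bases 0.44 against 0.22. Members of over 1500 and up to 3000 bases had -0.22 against -0.12. Adjusted for length the batch 8 split was 24 higher and 1 lower, and the part of length was not tested. The batch 7 libraries held 8331 to 8383 (controls) and 7236 to 7905 genes at 1 TPM or more, and 10 genes took 24.1 to 27.1% and 34.8 to 36.6% of all TPM. Trophectoderm and extraembryonic ectoderm markers were 0 higher and 8 lower of 9 tested there and 2 higher and 3 lower of 5 tested in batch 8, and epiblast markers 7 higher and 0 lower of 9 tested and 4 higher and 3 lower of 10 tested. Their part in the difference was not tested.

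**Figure D4:**
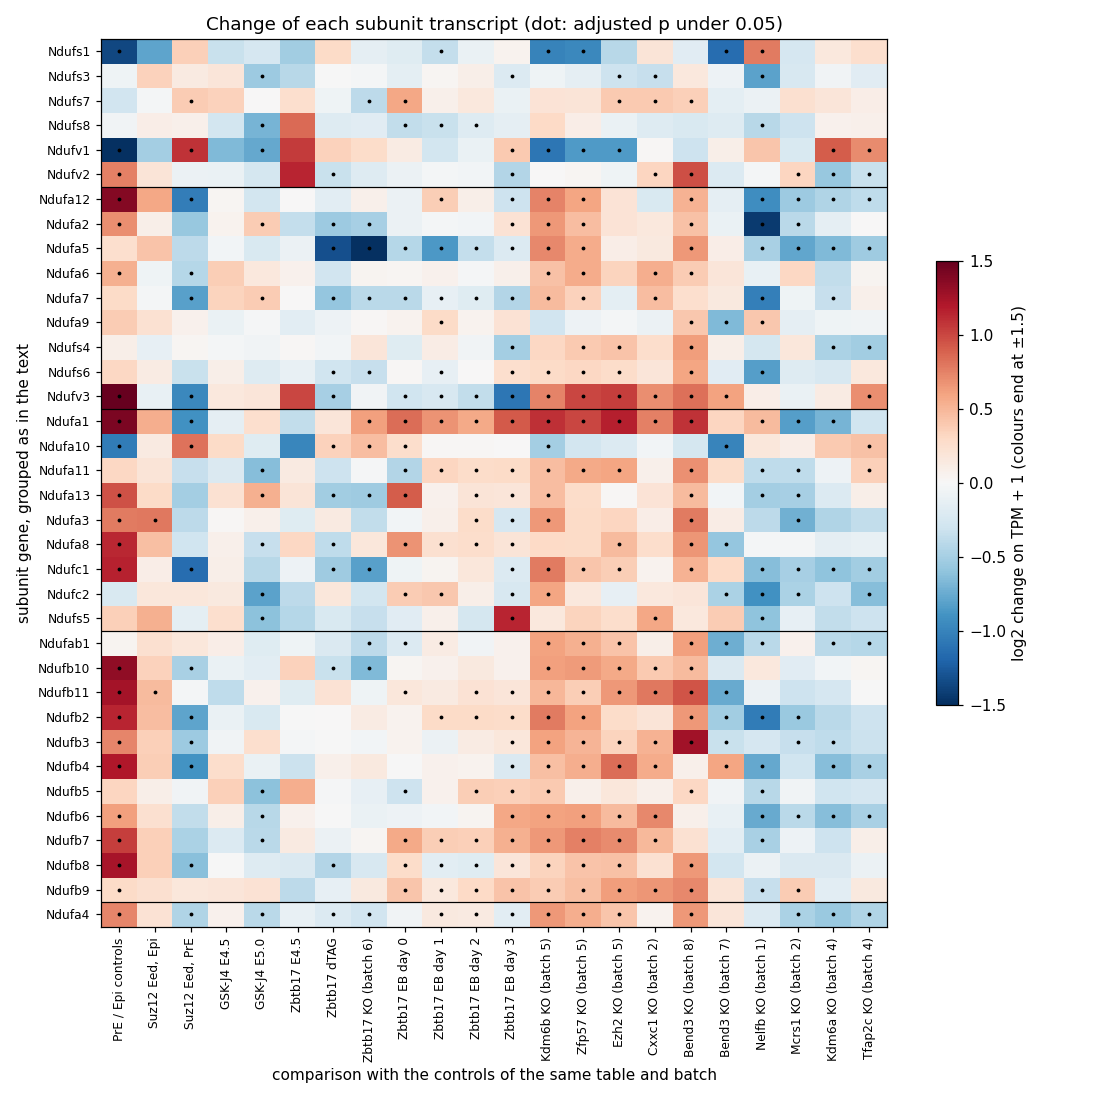
Log2 change of 36 of the 37 members (rows, by role) in 22 comparisons (columns), red higher and blue lower, colours ending at 1.5 either way, with a dot where the adjusted p is under 0.05. Ndufa5 is blue in the Zbtb17 columns other than E4.5, where its change was -0.09, and reaches -1.79 in the screen.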

How the data were processed

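The deposited values are TPM, made by the authors. The submitters' processing notes name the build mm10 and the tools Cufflinks, StringTie 2.2.1 and HISAT2 2.2.1 without saying what each was used for. No read counts were used, so depth is unknown and no counting interval is given. TPM of all genes in a library add to a fixed sum, so a rise of abundant genes lowers the rest. The members and the gene lists were chosen with earlier results of these data known.

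From the TPM, log2(TPM + 1) was fitted per table with limma 3.58.1 (R 4.3.3, eBayes with trend, two-sided). A gene was tested if the number of libraries with 1 TPM or more was not below the size of the smaller group, and p-values were adjusted by Benjamini and Hochberg over all genes of a comparison at a threshold of 0.05. Each screen knockout was set against the controls of its batch in 1 fit of all 10 batches. All screen groups share 1 estimate of the spread, so SE and p do not measure the spread of the libraries compared alone. The method was tested on simulated data. PrE controls 1 and 2 and the 3 Aurkb libraries (lowest correlation 0.999) were averaged. EB genes were named by row order. For mean levels of days 1 to 3, the correlation with the screen was best unshifted in 51 of 51 blocks (lowest 0.842). The day 0 libraries did not enter this check.

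Named by rule were up to 8 called members of largest change per comparison whose groups did not overlap and whose higher mean reached 5 TPM, the 7 core subunits in the PrE and double-knockout comparisons, the members of highest and lowest mean, and up to 4 members in each of the 6 knockouts with most calls. For other lists up to 2 genes were named in the same way. Of the members, 1 enters the counts and is not reported here by gene. Members named otherwise were picked after their values were seen.

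Same-numbered libraries were checked for shared deviations in 51 comparisons. They paired in 1, the Suz12 Eed double knockout in Epi, where the correlations were 0.101 to 0.238, above the minimum of 0.1. The alternatives were library weights, quantile normalization, no filter, a pseudocount of 0.1, a fit of the groups compared only, a replicate block, similar libraries kept apart, adjustment over all knockouts together and each library left out. Centring on a curve of transcript length (lowess span 0.3) and the difference of the 2 Bend3 effects were added after seeing the data.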

Additional observations from a re-analysis of the deposited data

Results flagged for a closer look

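Several members changed differently under the same contrast in different groups, by the test of the difference itself. All values are differences of log2 changes from limma, with p adjusted over all genes.

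The effect of the Suz12 Eed double knockout differed between PrE and Epi. It was above that in Epi for Ndufv1 (1.59, adjusted p = 0.00140), a core subunit. It was below that in Epi for Ndufa12 (-1.61, adjusted p = 0.00449), Ndufa1 (-1.45, adjusted p = 0.0145), Ndufb4 (-1.27, adjusted p = 0.00427), Ndufc1 (-1.24, adjusted p = 0.00822), Ndufa3 (-1.19, adjusted p = 0.0141) and Ndufv3 (-0.85, adjusted p = 0.0485), all accessory subunits.

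The effect of the Zbtb17 knockout in EB, with genes read by row order, differed between day 3 and day 1. It was higher on day 3 for Ndufs5 (1.07, adjusted p = 2.86e-04), Ndufa5 (0.66, adjusted p = 2.00e-04), Ndufb6 (0.62, adjusted p = 3.68e-04), Ndufs1 (0.41, adjusted p = 0.00682) and Ndufa1 (0.25, adjusted p = 0.0403). It was lower on day 3 for Ndufv3 (-0.84, adjusted p = 3.77e-06), Ndufa12 (-0.69, adjusted p = 7.25e-06), Ndufc2 (-0.64, adjusted p = 1.01e-05), Ndufs4 (-0.62, adjusted p = 7.16e-04), Ndufv2 (-0.40, adjusted p = 0.00981) and Ndufa7 (-0.31, adjusted p = 4.61e-04). These groups have 2 libraries each.

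The change in the libraries labelled Bend3 knockout differed between batch 8 and batch 7. It was higher in batch 8 for Ndufb11 (1.71, adjusted p = 7.21e-12), Ndufb3 (1.59, adjusted p = 5.07e-12), Ndufv2 (1.18, adjusted p = 7.69e-08) and Ndufa1 (0.76, adjusted p = 0.00533). These p-values use a spread shared by all screen groups, while the batch 7 libraries labelled knockout correlated at only 0.849 to 0.862. With library weights 8 members were called for the difference in place of 23. In a limma fit of batch 7 alone the changes there of Ndufb11 and Ndufb3 were not called (adjusted p = 0.438 and 0.797). Bend3 itself was lower in the batch 8 knockout and higher in the batch 7 libraries labelled knockout. The batches also differ in the stage their titles carry, and batch and titled stage cannot be told apart.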

How the results depend on the processing

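Of the counts of called members, 346 recomputed counts stayed within 1.5 times of the reported ones and 43 did not. These counts are totals, and counts of 0 that stayed at 0 are among those kept. Directions can turn over within a kept total. On EB day 2 the split went from 11 higher and 5 lower to 3 higher and 10 lower when adjusted for length. In Bend3 of batch 7 it went from 2 higher and 9 lower to 10 higher and 5 lower under quantile normalization. Of the values of named members, 1691 kept their direction and side of the threshold, 121 lost the call, 11 gained one and 1 reversed when adjusted for length, Ndufs3 in PrE against Epi (0.40). Adjusted for length, the number of called members became 31 on EB day 0, 7 for Cxxc1, 13 for Ezh2, 0 for the double knockout in Epi, 13 for the Bend3 difference, 23 for Kdm6a, 7 for Gtf2b and 8 for Zbtb17 in the screen. With library weights it became 9 for Ezh2, 15 for Zfp57, 1 for the double knockout in Epi, 22 for Kdm6a, 5 for Zbtb17 in the screen, 2 for Bend3 in batch 7 and 8 for the Bend3 difference, which was 14 under quantile normalization. In a fit of the groups compared only it was 12 for Ezh2, 13 for Zfp57, 22 for Gtf2b, 1 for Zbtb17 in the screen, 0 for Bend3 in batch 7 and 1 for the double knockout in Epi. Without a filter it was 0 for the double knockout in Epi and 10 for its difference between lineages, and with a pseudocount of 0.1 it was 1 in Epi. With the replicate number as a block, for the 1 paired comparison, the double knockout in Epi had 7 called members in place of 2, and the block moved no other count of a comparison by more than 1.5 times. The dTAG libraries carry numbers of their own, so no paired analysis was possible there. Leaving out 1 library at a time gave 0 to 2 called members for the double knockout in Epi, 4 to 15 in PrE and 8 to 19 for their difference. Without the averaged pair of PrE controls the count in PrE was 6, and that of the difference 9. Single omissions gave 7 to 17 for GSK-J4 at E5.0, 9 to 14 for EB day 1, 13 to 23 for Ezh2, 14 to 24 for Zfp57 and 14 to 24 for the Bend3 difference. An arm left with 1 library is assumed to vary like the other groups. Quantile normalization moved the median of all genes from -0.46 to -0.11 for PrE against Epi, from 0.40 to 0.02 for the double knockout in PrE, from 0.23 to 0.01 for EB day 0, from -0.22 to 0.09 for Kdm6b and from -0.32 to -0.10 for Bend3 in batch 7. The cause of these shifts was not tested. Of all genes the length adjustment called 25.6% on EB day 0, 53.6% for PrE against Epi, 28.7% for GSK-J4 at E5.0 and 10.8% for dTAG. It called 21.7% for the double knockout in PrE and 9.61% in Epi. For the screen these shares are not given here. TPM give no depth, so what depth limits is unknown.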

Other observations

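Other genes of energy metabolism moved in 2 of the screen comparisons with many called members. In the batch 8 Bend3 knockout complex IV had 7 higher and 0 lower of 10 tested genes called, and glycolytic enzymes 2 higher and 8 lower of 14. Complex I assembly factors had 4 higher and 0 lower of 15, among them Ndufaf1 (1.19, adjusted p = 5.83e-04) and Ndufaf8 (0.83, adjusted p = 1.62e-04). In the libraries labelled Cxxc1 knockout complex IV had 8 higher and 0 lower of 10 and glycolytic enzymes 2 higher and 9 lower of 15. Of all genes 28.7% were called in the first comparison and 21.4% in the second.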
